A study of Mus musculus with 4 samples.

Results

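Ribosome biogenesis was followed here through 35 genes whose products transcribe, modify, cut and assemble ribosomal RNA. They were taken as a list, and every probe set (a group of short array probes for 1 transcript) whose annotation named a single one of these genes was used. This gave 71 probe sets for 33 of the 35 genes, among 18193 genes on the array. Npm3 and Mrto4 had no probe set that named them alone. All 33 genes had a probe set bright enough to be tested, as did 12560 genes in all.

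The RNA was total RNA of mature liver from C57BL/6J mice. A group of 2 arrays came from liver 48 h after a sham operation, and a group of 2 arrays from liver 48 h after partial hepatectomy, the surgical removal of part of the liver, after which the remainder regrows. No other genotype or agent was named for either group. The design text calls the arrays of a group biological duplicates. The sources used here do not give whether animals were pooled for an array, how much liver was removed, or the age and sex of the mice. The p-values therefore measure the spread between these arrays.

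Ribosomes are built in the nucleolus. RNA polymerase I makes a long precursor RNA, small nucleolar particles of the box C/D type methylate it and those of the box H/ACA type convert uridines to pseudouridine, and a series of assembly factors cut and fold it into the small and large subunits. A cell that grows before it divides needs more ribosomes, and this pathway is a classical target of the transcription factor Myc.

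The signal was a linear intensity in arbitrary units, scaled by the authors to the same trimmed mean on every array. Differences are given as log2(signal + 8.57) of hepatectomy minus sham with their standard error (SE), tested with limma and adjusted by the Benjamini-Hochberg method over 27022 probe sets. Each gene was represented by its brightest probe set unless stated otherwise. Fewer cells of a type and less RNA per cell cannot be told apart in such tissue RNA. The summed signal of 9 hepatocyte markers lay between 106153 and 123974 on the 4 arrays. The library labelled hepatectomy replicate 1 stood apart: the summed signal of 8 adrenal cortex markers was 19650 there, against 231 on hepatectomy replicate 2 and 213 to 245 in the sham group. Of these 8 markers 7 were highest on that array, where Hsd3b1 reached 7227, Star 3701 and Cyp11b1 2673; Nr5a1 was at 18.2, its lowest of the 4 arrays. Adipocyte markers summed to 2287 there, against 66.7, 150 and 277 elsewhere, with Adipoq, Retn and Cidec highest on it and Lep at 22.2 against 22.6 on replicate 2. The summed markers of several other cell types were higher on both hepatectomy arrays than on either sham array. The 6 leukocyte markers summed to 1100 and 1015 in the sham group and to 10362 and 3964 in the hepatectomy group, where S100a8 and S100a9 were called higher while Cd3e and Cd79a lay below both sham arrays. The 7 markers of stellate cells and fibroblasts summed to 3054 and 4415 against 9522 and 7278, with Col1a1, Col1a2, Col3a1 and Acta2 called higher. Des lay above both sham arrays without being called. Lrat lay below both (1010 and 1257 against 482 and 919), also not called, and the groups of Pdgfrb overlapped. The 4 cholangiocyte markers summed to 457 and 526 against 1249 and 737, with none called. Sums of 7 macrophage markers (14630 to 15939) and of 6 endothelial markers (3394 to 3739) spanned narrower ranges, but single markers moved. Of the macrophage markers Marco was called higher (241 and 172 against 3194 and 1670) and Csf1r called lower (3761 and 3651 against 2216 and 2339). Adgre1 and Clec4f also lay below both sham arrays, and Cd68 and Cd5l above them. No endothelial marker was called, with Kdr, Stab2 and Lyve1 below both sham arrays and Pecam1 and Tek above. The part of these cells and tissues in the results below was not tested. The median difference and the number of positive differences are given with and without hepatectomy replicate 1.

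Most ribosome biogenesis transcripts differed from sham liver by less than 2-fold 48 h after partial hepatectomy. The same held for most genes tested, whose quartiles on the log2 scale were -0.20 and 0.31. One of the 33 genes was called at an adjusted p under 0.05, Nop58, which was higher after hepatectomy. Over all genes tested, 4.67% were called, 3.57% higher and 1.09% lower. By an unadjusted p under 0.05, 4 of the 33 genes were higher and none was lower. These were Nop58, Gar1, Nhp2 and Nop56, all 4 of them proteins of small nucleolar particles. Their share of 12.1% was near the 12.5% of all genes that were higher by the same rule, while 7.47% of all genes were lower. Without hepatectomy replicate 1, which leaves a single array in that group, the median difference of the 33 genes was 0.27, against 0.01 for all genes.

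The differences of the 33 genes ran from -0.36 for Polr1b to 1.07 for Nop58, with a median of 0.099. The median over all genes tested was 0.02. After each array was centred on its median, the median of the 33 genes was 0.013 with 17 of them positive, and that of all genes was -0.06. Of the 33 genes 22 had a positive difference, or 66.7%, against 52.9% of all genes. Both hepatectomy arrays lay above both sham arrays for 11 genes (33.3%, against 28.1% of all genes) and below both for 1 gene (3.03%, against 23.2%). For the other 21 genes the groups overlapped.

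**Figure D1:**
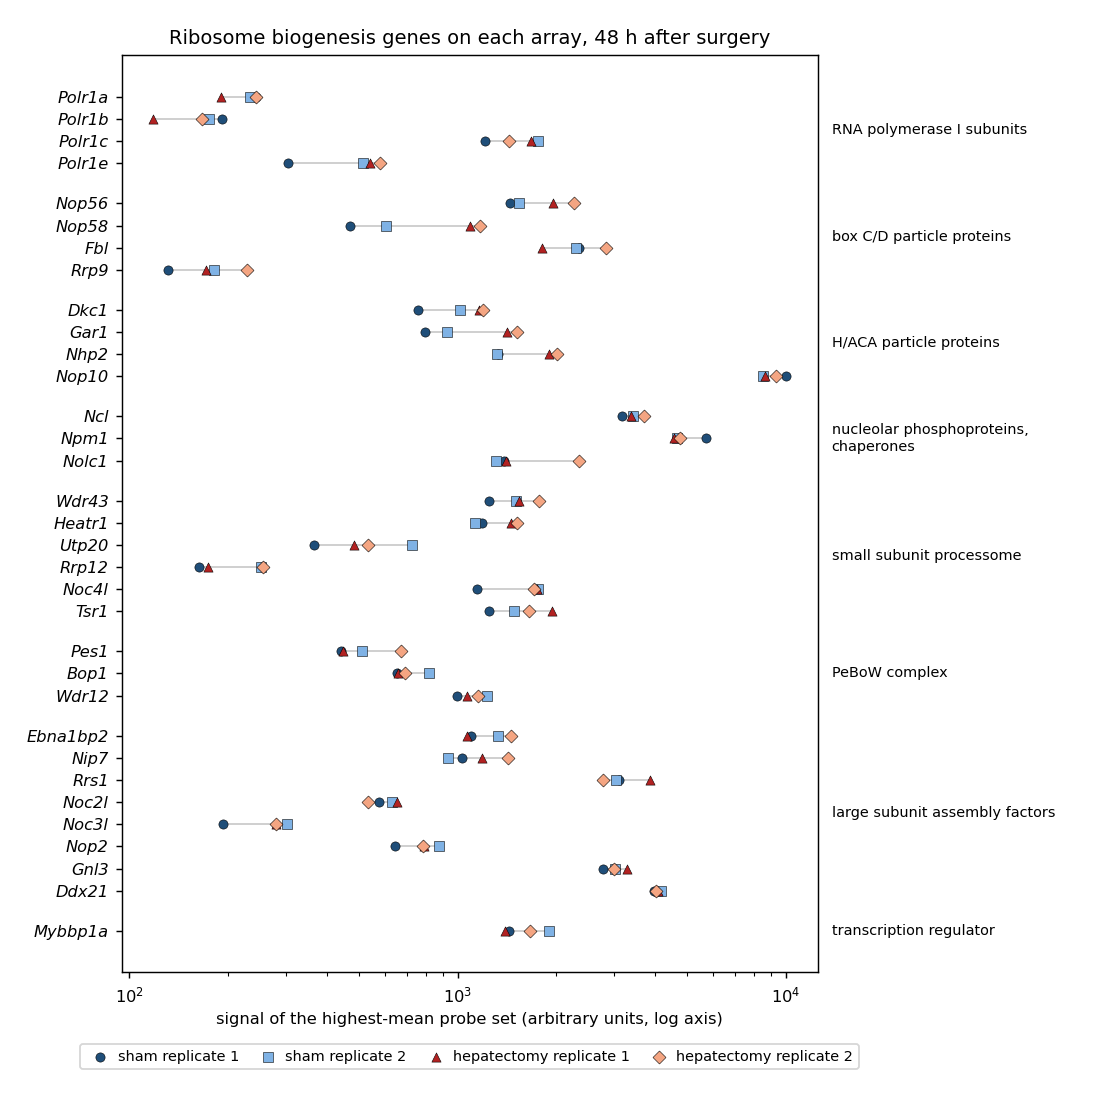
Signal of each of the 33 genes (rows, grouped by role) on the 4 arrays, on a log axis in arbitrary units; each point is 1 array and the grey line joins the lowest to the highest. Nop58, Gar1, Nhp2 and Nop56 show both hepatectomy points to the right of both sham points, and sham replicate 1 is the lowest point for 20 of the 33 genes. Signals of different genes come from different probes and are not to be compared.

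The precision of the arrays set what could be seen. The 95% interval of the difference lay within a 2-fold change in either direction for 28 of the 33 genes, or 84.8%, against 63.2% of all genes tested. The intervals of the 33 genes were also narrower, with a median of 0.46 to either side against 0.52 for all genes. The part of signal level in this share was not tested. The interval reached above 2-fold for 4 genes, Nop58, Gar1, Polr1e and Rrp9, and below it for 1, Polr1b. An overlap of the groups does not show that the levels were alike.

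**Figure D2:**
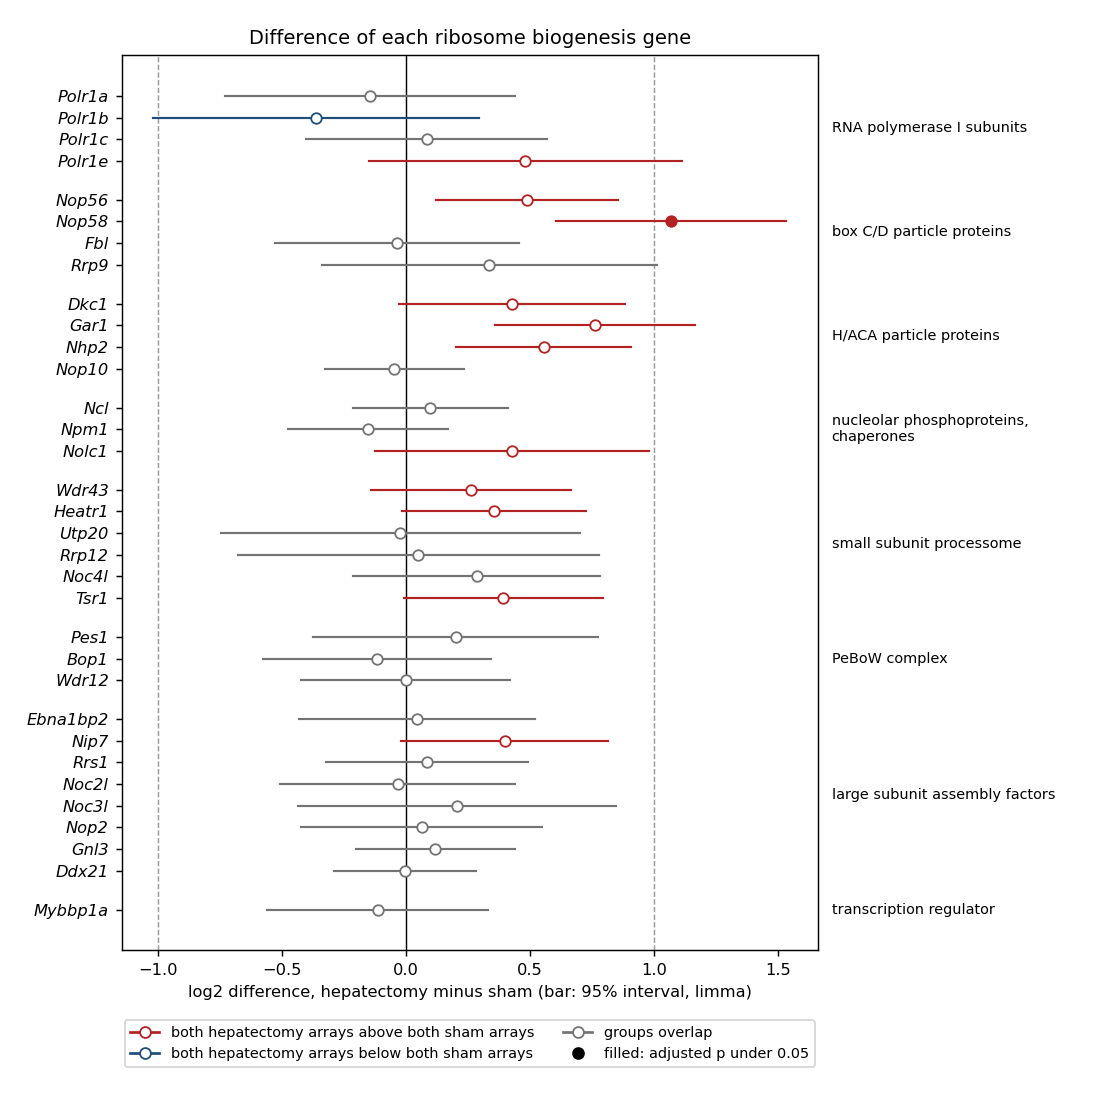
Difference of each gene on the log2 scale, hepatectomy minus sham (x axis), with its 95% interval from limma; colours give whether the 2 groups overlapped, the filled point is the gene called, and dashed lines mark a 2-fold change. The intervals of 28 genes stay between the dashed lines and Nop58 is the filled point at 1.07.

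Of the 4 listed proteins of box C/D particles 1 was called, Nop58, against 4.67% of all genes. Nop58, which binds the guide RNA of the particle with its relative Nop56, had signals of 472 and 606 after sham surgery and of 1092 and 1172 after hepatectomy. Both hepatectomy arrays were well above both sham arrays. The mean rose from 539 ± 95.2 to 1132 ± 56.6 (SD, n = 2 arrays per group), a log2 difference of 1.07 ± 0.20 (SE; adjusted p = 0.0295). With sham replicate 1 left out the difference was 0.89, and with sham replicate 2 left out it was 1.25. The call was lost in both fits, which kept 1 sham array and in which calls over all genes fell as well. With all 4 arrays it was lost after each array was centred on its median (0.98, adjusted p = 0.0572), without the filter on dim probe sets (adjusted p = 0.0784) and without the mean-variance trend (adjusted p = 0.138). Nop58 has a single probe set.

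Nop56 read 1445 and 1544 after sham surgery and 1946 and 2266 after hepatectomy. The groups did not overlap, and the difference of 0.49 ± 0.16 did not pass (adjusted p = 0.169). Its second probe set gave 834 and 1203 against 1454 and 1941, also without overlap, and a difference of 0.74 ± 0.23 (adjusted p = 0.148). Fbl encodes fibrillarin, the methyltransferase of the particle. Its signals were 2342 and 2287 in the sham group and 1803 and 2826 in the hepatectomy group, so that the hepatectomy arrays enclosed the sham arrays. The difference was -0.04 ± 0.21 (adjusted p = 0.96), with a 95% interval from -0.53 to 0.46. Without hepatectomy replicate 1 it was 0.29. Rrp9, which binds the U3 particle that directs the first cuts of the precursor, gave 132 and 182 against 171 and 228, with the groups overlapping (0.34 ± 0.29, adjusted p = 0.642).

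Among the 4 proteins shared by H/ACA particles, 3 had groups that did not overlap, all higher after hepatectomy, as did 28.1% of all genes. Gar1 had signals of 796 and 932 in sham liver and 1418 and 1517 in hepatectomy liver. The mean was 864 ± 96.1 against 1467 ± 70.1 (SD, n = 2 arrays per group), and the difference of 0.76 ± 0.18 missed the threshold (adjusted p = 0.0605). It passed with robust eBayes (adjusted p = 0.0437) and when only the brighter 40% of probe sets were tested (adjusted p = 0.0468). Nhp2 had almost the same signal on both sham arrays, 1325 and 1320, and read 1893 and 2007 after hepatectomy, a difference of 0.56 ± 0.15 (adjusted p = 0.105). The second Nhp2 probe set read 366 and 312 against 577 and 573 (0.75 ± 0.21, adjusted p = 0.112), so the gene's probe sets pointed the same way.

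Dkc1 encodes dyskerin, the pseudouridine synthase of these particles and a component of telomerase. Its signals were 756 and 1015 against 1165 and 1199, without overlap, and the difference was 0.43 ± 0.20 (adjusted p = 0.333). In its other 2 probe sets the groups overlapped, with differences of 0.25 and 0.12. Nop10, the smallest protein of the particle, read 10004 and 8538 in sham liver and 8611 and 9313 in hepatectomy liver. The difference of -0.05 ± 0.12 had a 95% interval from -0.32 to 0.23, so that the difference of Nhp2 lay outside it. The second Nop10 probe set read 3995 and 4120 against 3385 and 3926, below both sham arrays (-0.15 ± 0.14, adjusted p = 0.647). The median difference of the 4 H/ACA genes was 0.49 and that of the 4 box C/D genes 0.41, both of them above the median of 0.02 over all genes under every scaling tried. The H/ACA median was 0.12, over 3 genes, without probe sets whose names end in _x_at or _s_at, and the box C/D median was 0.26 without hepatectomy replicate 2. These medians are descriptions of a few genes each.

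The promoters of the 4 genes with an unadjusted p under 0.05 are printed to show what sequence surrounds their start sites, with that of Nop2, whose level did not separate the groups and which holds both motifs marked. RefSeq sequences (build GRCm38.p6, 250 bases before to 50 after the start of the gene) were found for 30 of the 35 genes. Those of Fbl, Npm1, Rrp12, Bop1 and Rrs1 were not used here. Capitals mark matches on either strand to CACGTG (the E-box, bound by Myc with Max) or CCGGAAG (bound by ETS factors).
Nop58 (chr1:59684756-59685055, plus strand): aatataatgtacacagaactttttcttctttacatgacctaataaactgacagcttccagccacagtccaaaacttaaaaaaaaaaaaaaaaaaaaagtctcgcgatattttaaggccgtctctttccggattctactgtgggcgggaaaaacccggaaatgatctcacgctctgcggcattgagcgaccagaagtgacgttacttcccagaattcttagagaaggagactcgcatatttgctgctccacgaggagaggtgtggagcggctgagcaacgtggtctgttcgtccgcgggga
Gar1 (chr3:129831347-129831646, minus strand): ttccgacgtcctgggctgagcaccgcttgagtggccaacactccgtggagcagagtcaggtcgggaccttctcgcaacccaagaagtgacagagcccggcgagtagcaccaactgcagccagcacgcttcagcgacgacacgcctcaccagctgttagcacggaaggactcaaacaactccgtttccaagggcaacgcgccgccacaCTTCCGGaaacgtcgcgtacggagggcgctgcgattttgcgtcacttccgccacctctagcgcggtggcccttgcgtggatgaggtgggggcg
Nhp2 (chr11:51619523-51619822, plus strand): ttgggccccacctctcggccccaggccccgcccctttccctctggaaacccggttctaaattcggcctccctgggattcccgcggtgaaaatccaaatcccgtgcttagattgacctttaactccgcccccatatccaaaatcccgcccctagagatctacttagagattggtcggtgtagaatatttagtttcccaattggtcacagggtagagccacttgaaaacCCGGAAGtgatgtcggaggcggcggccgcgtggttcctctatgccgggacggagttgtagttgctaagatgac
Nop56 (chr2:130274162-130274461, plus strand): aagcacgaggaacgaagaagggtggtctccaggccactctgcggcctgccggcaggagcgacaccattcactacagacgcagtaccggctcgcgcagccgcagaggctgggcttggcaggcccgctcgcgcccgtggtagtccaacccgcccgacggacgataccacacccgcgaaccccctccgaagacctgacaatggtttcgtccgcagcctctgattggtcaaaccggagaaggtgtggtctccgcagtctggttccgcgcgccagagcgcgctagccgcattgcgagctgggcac
Nop2 (chr6:125131633-125131932, plus strand): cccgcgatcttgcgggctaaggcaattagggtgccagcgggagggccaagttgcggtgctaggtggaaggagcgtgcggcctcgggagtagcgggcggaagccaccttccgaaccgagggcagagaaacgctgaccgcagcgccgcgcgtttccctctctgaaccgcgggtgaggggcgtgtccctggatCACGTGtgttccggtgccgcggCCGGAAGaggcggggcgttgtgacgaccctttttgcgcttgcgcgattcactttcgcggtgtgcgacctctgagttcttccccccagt
Nop58 and Nop56 hold neither motif in this window, Gar1 and Nhp2 hold 1 ETS motif each just upstream of the start, and Nop2 holds 1 match to each. Tsr1 also holds 1 match to each, and its groups did not overlap, higher after hepatectomy.

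An E-box was found at 6 of the 30 genes, or 20%, against 7.2% of 32851 promoters of the same length and 11.6% of 10156 genes that were tested. The genes were Wdr43, Pes1, Tsr1, Mybbp1a, Utp20 and Nop2, none of them among the 4 above. In 5 of these the motif began between 3 and 41 bases after the start site, and in Nop2 60 bases before it. The ETS motif was found at 12 of the 30 genes, or 40%, against 8.9% of all promoters and 19.2% of tested genes. Another motif, GGGCGG (bound by Sp1 and related factors; not in capitals), was found at 22 of the 30, or 73.3%, against 35.7% and 66.4%. The motif of NRF1 was also searched; its count depended on the form searched and is not given. The median GC content was 59.7% in these promoters, 52.7% in all and 60.3% in those of tested genes. A match describes the letters and not binding.

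Several of the genes carry small nucleolar RNA genes inside them, the RNAs that guide the particles just described. In the GRCm38.p6 annotation 7 of the 33 genes (21.2%) enclosed at least 1 small nucleolar RNA gene, against 2.16% of 12032 protein-coding genes tested. They were Nop56 (with Snord57 and Snord110 among 5), Nop58 (Snord11 and Snord70 among 4), Wdr43 (Snord53 and Snord92 among 3), Gnl3 (Snord19 and Snord69 among 3), Ncl (Snora75 and Snord82), Tsr1 (Snord91a) and Dkc1 (1 with no family name). The differences of these 7 host genes ran from 0.10 to 1.07 with a median of 0.39, and the median of the other 26 was 0.06. The median over all 260 host genes tested was not taken, and a link of host status to the difference was not tested. Annotated strand was not available in the table used, and the host transcripts, not the small RNAs, were measured.

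RNA polymerase I itself showed no common direction. Polr1a encodes its largest subunit, which with Polr1b forms the catalytic centre. Polr1a read 244 and 234 against 191 and 243, with overlap, a difference of -0.14 ± 0.25 (adjusted p = 0.841). The groups also overlapped in its dimmer tested probe sets, with differences of 0.22 and -0.28. By its brightest probe set, Polr1b was the single gene of the 33 with both hepatectomy arrays below both sham arrays: 191 and 175 against 118 and 167. The difference of -0.36 ± 0.29 did not pass (adjusted p = 0.6), and the lower hepatectomy value was that of replicate 1. Among dimmer tested probe sets, those of Npm1 and Nop10 and some of Ncl, Noc2l and Nip7 also lay below both sham arrays. Dimmer ones of Polr1e, Nop56, Nhp2, Nolc1, Noc4l and Tsr1 lay above both. Polr1c, a subunit shared with RNA polymerase III, read 1210 and 1755 against 1670 and 1431, with the hepatectomy arrays between the sham arrays (0.08 ± 0.21, adjusted p = 0.892). Polr1e, part of a subunit pair that helps the enzyme start, read 306 and 517 against 540 and 579 (0.48 ± 0.27, adjusted p = 0.439). The groups were separate, by a small margin above sham replicate 2. Its second probe set gave the same difference, 0.48, with 190 and 202 against 210 and 364.

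None of the 3 genes for abundant nucleolar proteins was called, against 4.67% of all genes, and their differences lay between -0.15 and 0.43. Ncl encodes nucleolin, an RNA-binding protein of the nucleolus, and read 3169 and 3432 against 3370 and 3703 (0.10 ± 0.14, adjusted p = 0.786). Its 95% interval of -0.21 to 0.41 is among the narrower ones, and the differences of its 5 tested probe sets ran from -0.21 to 0.10. Npm1 encodes nucleophosmin, a chaperone of ribosome assembly, and read 5727 and 4668 against 4549 and 4750 (-0.15 ± 0.14, adjusted p = 0.661). The second Npm1 probe set read 4664 and 4142 against 3820 and 3757, below both sham arrays (-0.21 ± 0.13, adjusted p = 0.472). Nolc1, a phosphoprotein that binds small nucleolar particles, was the gene where the hepatectomy arrays differed most: 1405 on replicate 1 and 2343 on replicate 2, above sham signals of 1385 and 1309. Replicate 1 thus lay just above the sham arrays. The difference was 0.43 ± 0.24 over all arrays (adjusted p = 0.431), and with hepatectomy replicate 1 left out it was 0.80 (adjusted p = 0.0445). The other 2 probe sets of Nolc1 had differences of 0.62 and 0.55, so all 3 lay above 0.

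The small subunit processome is the large particle that forms on the precursor. Of its 6 genes 5 had a positive difference (83.3%, against 52.9% of all genes). None was called, against 4.67% of all genes. Tsr1, a late factor of the small subunit, read 1250 and 1481 against 1942 and 1650, a difference of 0.39 ± 0.17 (adjusted p = 0.311). Heatr1, which links transcription to the first processing steps, read 1190 and 1132 against 1455 and 1519 (0.36 ± 0.16, adjusted p = 0.321). Wdr43 read 1248 and 1503 against 1537 and 1765 (0.26 ± 0.17, adjusted p = 0.514). In these 3 genes (50% of the 6, against 28.1% of all genes) both hepatectomy arrays lay above both sham arrays, by a narrow margin for Wdr43. The second Wdr43 probe set had a difference of -0.11. Noc4l (0.29), Rrp12 (0.05) and Utp20 (-0.02) had overlapping groups, and Utp20 spanned 366 to 727 between the sham arrays alone.

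The PeBoW complex is named for Pes1, Bop1 and Wdr12 and required for maturation of the large subunit. Its 3 genes had overlapping groups, as did 6116 of the 12560 genes tested. Pes1 read 442 and 512 against 447 and 671 (0.20 ± 0.25, adjusted p = 0.762). Bop1 read 655 and 817 against 659 and 690 (-0.12 ± 0.20, adjusted p = 0.837). Wdr12 read 999 and 1231 against 1065 and 1154 (0.00 ± 0.18, adjusted p = 1), with a 95% interval from -0.42 to 0.42. All 3 genes had a sham array on each side of at least 1 hepatectomy array.

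Of the 8 other large subunit factors measured, 7 had overlapping groups, as did 6116 of the 12560 genes tested. Their differences ran from -0.03 for Noc2l to 0.40 for Nip7. Rrs1, which helps bring the 5S particle to the precursor, had a difference of 0.09, Nop2, a methyltransferase of the large subunit RNA, of 0.06, Ebna1bp2 of 0.05 and Noc3l of 0.21. Gnl3, which encodes the GTP-binding protein nucleostemin, had a difference of 0.12, with signals of 2770 and 3023 against 3290 and 3000.5. The helicase gene Ddx21 read 3975 and 4156 against 4087 and 4034, a difference of 0.00 ± 0.12 with a 95% interval from -0.29 to 0.28, narrower than that of any other gene of the 33 except Nop10. Mybbp1a, a nucleolar regulator of transcription, read 1432 and 1895 against 1393 and 1665 (-0.11 ± 0.19, adjusted p = 0.835).

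Nip7 had 2 probe sets that pointed in opposite directions. The brighter one read 1034 and 936 in sham liver and 1184 and 1426 in hepatectomy liver, a difference of 0.40 ± 0.18 (adjusted p = 0.323). The other read 1012 and 1090 against 752 and 775, a difference of -0.46 ± 0.18 (adjusted p = 0.243). The groups were separate in both, above sham in one and below it in the other, and neither passed. In all, 22 of the 33 genes had several tested probe sets, whose signs were the same in 14 and mixed in 8. Of the 63 tested probe sets of the 33 genes 1 was called, against 3.39% of all probe sets.

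**Figure D3:**
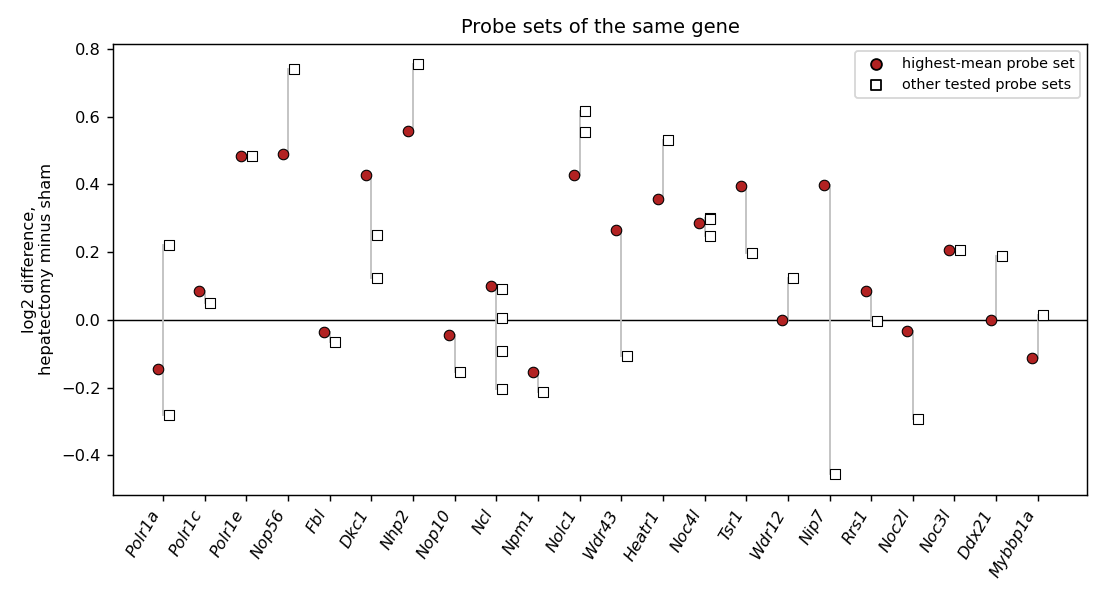
Log2 difference (y axis) of every tested probe set of the 22 genes with more than 1; filled circles are the brightest probe set of a gene and open squares the others. The probe sets of Nop56, Nhp2 and Nolc1 all lie above 0, and those of Nip7 lie at 0.40 and -0.46.

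The replicates of a group did not sit level for this list. Sham replicate 1 had the lowest signal of the 4 arrays for 20 of the 33 genes, and hepatectomy replicate 2 had the highest for 16. Sham replicate 1 was below sham replicate 2 for 23 of the 33 genes, against 54.1% of all genes tested, and hepatectomy replicate 1 was below replicate 2 for 24, against 46.6%. The median over the list, after setting each gene's mean over the arrays to 0, was -0.17 and 0.01 in the sham group and 0.03 and 0.12 in the hepatectomy group. The sham arrays thus lay further apart from each other than sham replicate 2 lay from either hepatectomy array.

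The median difference followed the arrays that were used. It was 0.04 without sham replicate 1, where 17 of the 33 genes had a positive difference, and 0.32 without sham replicate 2, where 28 did. Without hepatectomy replicate 1, the array with the adrenal and fat transcripts, it was 0.27 with 26 genes positive, and without hepatectomy replicate 2 it was 0.11 with 21. The median over all genes tested stayed between 0.01 and 0.04 across these 4 settings. Each of these fits leaves a single array in a group. The range of the number of genes called is given in the closing section, beside the counts over all genes.

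**Figure D4:**
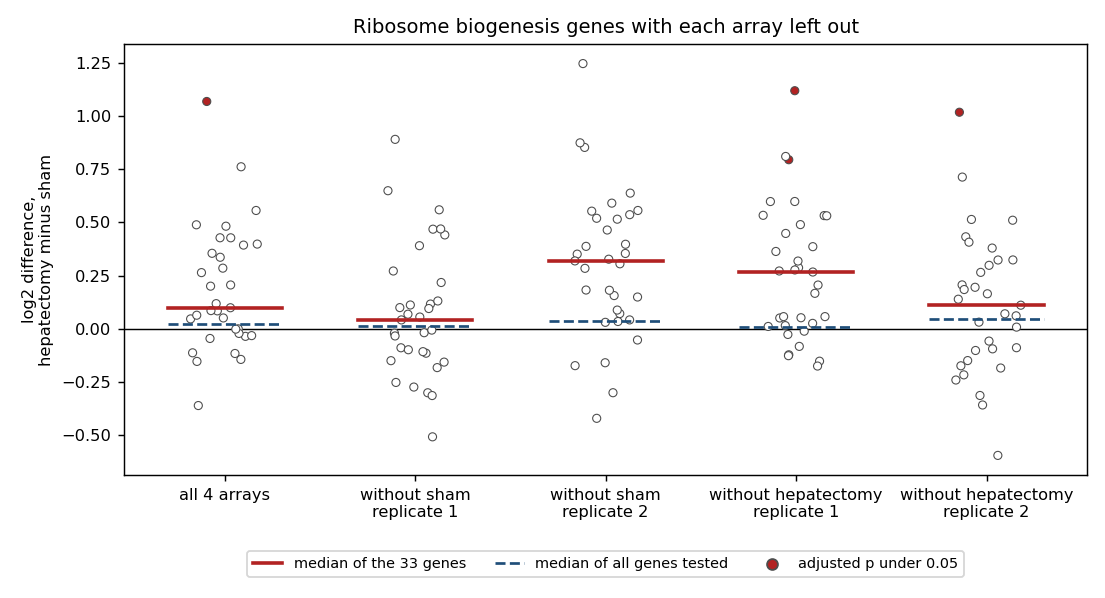
Log2 difference (y axis) of each of the 33 genes with all 4 arrays and with each array left out; points are genes, filled when called, red lines are their medians and blue dashed lines the median of all genes tested. The red line stands at 0.32 without sham replicate 2 and at 0.04 without sham replicate 1.

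The rest of the pathway was read from lists of 226 further genes that were tested. Of these 1 was called, higher (0.442%, against 3.57% of all genes). The counts of the lists below are read against the 4.67% of all genes called in either direction. The median difference of the 226 genes was 0.04 over all arrays and -0.05 after each array was centred on its median. Of the 16 genes that complete RNA polymerase I and its factors none was called (median 0.10). Ubtf, which encodes the factor UBF that opens ribosomal DNA, read 1317 and 1575 against 1730 and 1773 (0.28 ± 0.16, adjusted p = 0.458). Rrn3, the factor that joins the polymerase to its promoter, read 2839 and 2370 against 2423 and 2492 (-0.08 ± 0.15, adjusted p = 0.857). The hepatectomy arrays lay above the sham arrays for Ubtf and between them for Rrn3. Baz2a, a subunit of the complex that silences ribosomal DNA, had the smallest p of that list, with 2480 and 2447 against 1823 and 1896 (-0.40 ± 0.14, adjusted p = 0.202). Znrd1 (0.42) and Twistnb (0.33), both subunits of the polymerase, had an adjusted p of 0.358 and 0.361.

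Assembly factors of small nucleolar particles had a median of 0.19 over 11 genes, with none called. The differences were 0.62 for Znhit3, 0.36 for Naf1, which assembles H/ACA particles, and 0.37 for Ruvbl2, a helicase that loads box C/D proteins (adjusted p from 0.234 to 0.531). Tcof1, which encodes the nucleolar protein treacle, read 193 and 259 against 262 and 323 (0.37 ± 0.26, adjusted p = 0.557). Of 58 further genes of large subunit assembly none was called, and their median was 0.13. Eif6, which keeps the free large subunit from joining the small one, read 2161 and 2343 against 3470 and 3171 (0.56 ± 0.14, adjusted p = 0.0826). Rrp1b (1.005), Ppan (0.61) and Nle1 (1.07) followed it, with an adjusted p of 0.114, 0.158 and 0.183. The hepatectomy arrays were above the sham arrays in each of these 4 genes, which were taken for their small p values. Of the 58 genes 21 lay above both sham arrays (36.2%, against 28.1% of all genes). Below both lay 6 (10.3%, against 23.2%).

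Of 51 further genes of the small subunit none was called, and their median was 0.00, or -0.08 after median centring. The smallest p values were those of Ddx52 (0.59), Utp15 (0.60), Tbl3 (0.52) and Mphosph10 (0.49), with an adjusted p between 0.232 and 0.296. A list for the exosome, the complex that trims the 3' ends of the precursor, also held other nucleases such as Eri1 and Xrn2. It had no called gene among 15 and a median of 0.18. Its smallest p values were those of Eri1 (0.67, adjusted p = 0.0826) and Mphosph6, which read 109 and 66.9 against 230 and 195 (1.22 ± 0.32, adjusted p = 0.0904). Exosc9 had a difference of 0.44 (adjusted p = 0.253) and C1d of -0.28 (adjusted p = 0.354).

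RNA polymerase III, which makes the 5S ribosomal RNA and transfer RNAs, had no called gene among 21 and a median of -0.03. Maf1, the repressor of this polymerase, came closest: it read 1820 and 1748 in sham liver and 1149 and 1018 in hepatectomy liver. Both hepatectomy arrays were well below both sham arrays, and the difference of -0.72 ± 0.16 missed the threshold (adjusted p = 0.0585). With all 4 arrays it passed with robust eBayes (adjusted p = 0.0422) and when only the brighter 40% of probe sets were tested (adjusted p = 0.0453). Without hepatectomy replicate 1 it was -0.80 and passed (adjusted p = 0.0445), as did Polr3gl, a subunit variant of this polymerase (-1.28, adjusted p = 0.03). Over all arrays Polr3gl had a difference of -0.79 (adjusted p = 0.284), Polr3a of -0.42 (adjusted p = 0.338) and Polr3d of 0.58 (adjusted p = 0.36).

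Of 42 cytosolic ribosomal protein genes with a probe set of their own, none was called. The quartiles of their differences were -0.03 and 0.07, against -0.20 and 0.31 for all genes, and their median was 0.01, or -0.07 after median centring and 0.05 after quantile normalization. The smallest p values were those of Rps27 (-1.19), Rps25 (0.59), Rpl41 (0.35) and Rpl14 (0.57), with an adjusted p from 0.197 to 0.34. Ribosomal protein genes have many near-identical copies in the genome, so their probe sets may read more than 1 transcript.

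Among 12 tested genes of Myc and its partners, 9 had a negative difference, as did 5911 of the 12560 genes tested. Of the 12 genes 6 lay below both sham arrays after hepatectomy (50%, against 23.2% of all genes) and none of these was called. Myc read 964 and 177 in sham liver and 257 and 141 in hepatectomy liver, so that sham replicate 1 stood above the other 3 arrays. The difference was -1.09 ± 0.67 (adjusted p = 0.477), 0.10 without sham replicate 1 and -2.29 without sham replicate 2 (adjusted p = 0.0443). Sham replicate 1 was also the array with the lowest signal for most of the 33 ribosome biogenesis genes. Mxd3, a member of the family that competes with Myc for its partner Max, was the called gene of these lists: it rose from 355 and 396 to 1061 and 818, a difference of 1.29 ± 0.22 (adjusted p = 0.0181). Leaving out either sham array ended the call (adjusted p = 0.149 and adjusted p = 0.0882), as did testing without the filter on dim probe sets (adjusted p = 0.0587) or without a trend (adjusted p = 0.107). Other members of that family were lower on both hepatectomy arrays than on either sham array without passing: Mxd1 (-0.79, adjusted p = 0.113), Mxd4 (-0.55, adjusted p = 0.106) and Mxi1 (-0.36, adjusted p = 0.258). The other 3 genes below both sham arrays were Mycl (-0.65, adjusted p = 0.336), Mlxip (-0.52, adjusted p = 0.314) and Max (-0.39, adjusted p = 0.368).

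**Figure D5:**
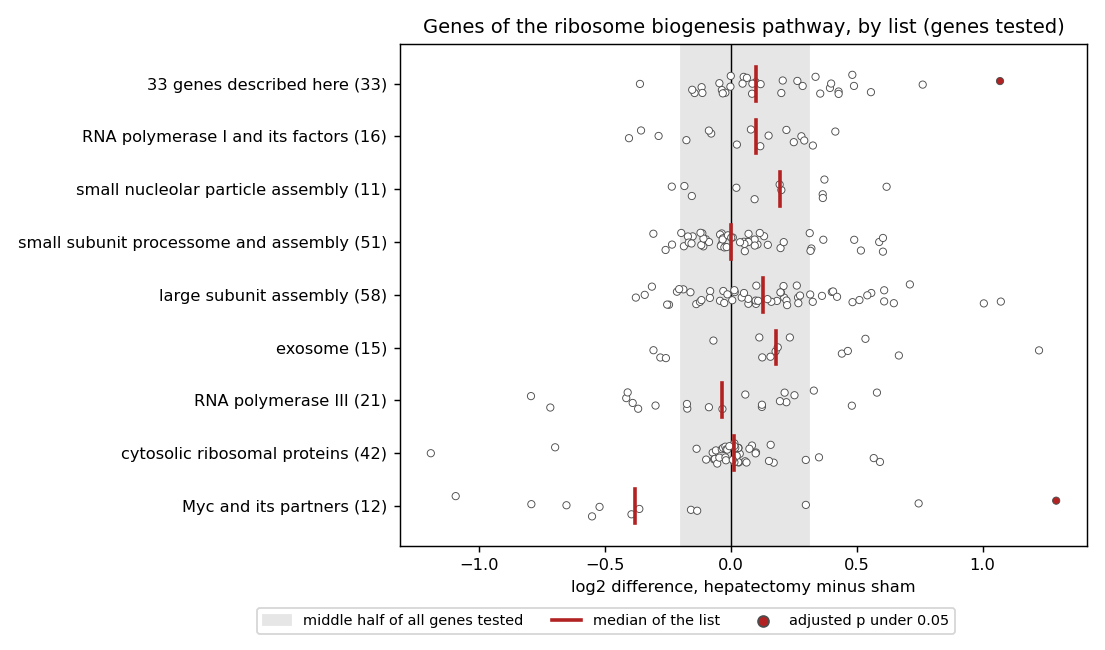
Log2 difference (x axis) of each tested gene of the 33 and of the 8 further lists (rows, with the number of genes); points are genes, filled when called, red lines are medians and the grey band spans the quartiles of all genes tested, from -0.20 to 0.31. Every median except that of Myc and its partners (-0.38) lies inside the band, and Nop58 and Mxd3 are the filled points.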

How the data were processed

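Labelled RNA of 4 livers or liver pools was read on Affymetrix arrays, 2 per group. The deposited values are intensities, 1 signal per probe set and array, computed by the authors (GCOS 1.4 is named in the submitters' processing notes). The sources used here name neither the settings of that software nor a scan date, and no batch was examined. The mean of each array after trimming 2% of values at both ends was 500, which shows a scaling to a common level before deposit.

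Of 45101 probe sets 64 controls were left out, and 34945 of the rest named 1 gene. An offset of 8.57 (20th percentile of all signals) was added before taking log2, which understates the change of dim genes. Probe sets with a mean under the 40th percentile were left out. The groups were compared with limma 3.58.1 in R 4.3.3 (lmFit, eBayes with a mean-variance trend, 2 residual and 6.02 prior degrees of freedom), two-sided, adjusted over 27022 probe sets. The code was tested on simulated data. Genes were named in full when called, when the groups did not overlap, when among the 4 largest differences each way, or as subunits of the polymerase, the particles and PeBoW; of further lists, called genes and up to 4 with the smallest p, with Myc, Rrn3, Ubtf and Tcof1. Nip7's second probe set, Ncl, Gnl3, Ddx21, Mybbp1a, Mycl, Mlxip and Max were added after their values were seen. Members and lists were chosen with earlier results of these data known. The alternatives tried are in the closing section.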

Additional observations from a re-analysis of the deposited data

How the results depend on the processing

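With 2 arrays per group, the number of arrays limits every value. The number of the 33 genes called was 0 after median centring, 0 without the filter on dim probe sets, 0 without a trend, and 2 (Nop58 and Gar1) with a filter at the 60th percentile, with robust eBayes and with probe sets of a gene averaged; it was 1 in the other settings with all 4 arrays other than the replicate block. The number of further pathway genes called was 0 without the filter and 0 without a trend, and 2 with the stricter filter and with robust eBayes. All genes called numbered 218 without the filter and 173 without a trend. Leaving out 1 array at a time gave 0 to 2 of the 33 genes, 0 to 3 further pathway genes, 234 to 1236 genes in all (234 and 313 with sham replicate 1 or 2 left out, 608 and 1236 with hepatectomy replicate 1 or 2 left out), and a median over the 33 genes of 0.042 to 0.32.

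The replicate numbers of the titles were tried as a replicate block, since same-numbered arrays had deviations that correlated at 0.10 over 27022 probe sets, with 2 pairs, which does not establish a pairing. With the block 2 of the 33 genes (Nop58, and Gar1 at an adjusted p = 0.0234), 4 further pathway genes (Maf1 among them, adjusted p = 0.0258) and 1189 genes in all were called.

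Differences that missed the threshold changed sign under some settings. After median centring those of Rrp12 (-0.035), Polr1c (-0.00201), Ebna1bp2 (-0.040), Rrs1 (-0.00074) and Nop2 (-0.022) were negative. After quantile normalization Rrp12 was at -0.067 and Ddx21 at 0.021. With probe sets of a gene averaged Ncl was at -0.021, Wdr12 at 0.062, Nip7 at -0.029 and Ddx21 at 0.093. Without _x_at and _s_at probe sets Wdr43 was at -0.11 and Rrs1 at -0.0027. The cause of these shifts was not tested. With 1 array left out at a time, the range crossed 0 for Rrp12 (-0.25 to 0.35), Polr1c (-0.18 to 0.35), Nop10 (-0.16 to 0.069), Ebna1bp2 (-0.17 to 0.27), Noc3l (-0.11 to 0.52), Noc4l (-0.020 to 0.59), Nop2 (-0.16 to 0.28), Myc (-2.29 to 0.10), Rrn3 (-0.21 to 0.052), Bop1 (-0.27 to 0.042), Wdr12 (-0.15 to 0.15), Noc2l (-0.18 to 0.11), Mybbp1a (-0.31 to 0.088), Utp20 (-0.51 to 0.46), Ddx21 (-0.034 to 0.030), Fbl (-0.36 to 0.29), Polr1a (-0.31 to 0.026), Rrs1 (-0.15 to 0.32), Pes1 (-0.089 to 0.49).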
